A study of Homo sapiens with 30 samples.

Results

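The genes described here are 8 receptors of the tumour necrosis factor receptor superfamily (FAS, TNFRSF10A, TNFRSF10B, TNFRSF10C, TNFRSF10D, TNFRSF1A, TNFRSF21 and EDA2R) and PIDD1, a cytoplasmic death domain protein. They were chosen by name and found by their Ensembl identifiers, and all 9 were present among the 39359 genes of the count table and among the 21335 that held enough reads to be tested. The libraries came from H1299, a p53-null line of human lung carcinoma cells. Cells were transfected with the control vector pGFP or with a vector for wild type p53, for the RW mutant of p53 at codon 248, or for wild type p53 with a single O6-methylguanine at that codon (p53 O6-meG). The last vector was also given to cells in which the repair protein AGT was inactivated with 10 µM O6-benzylguanine, a condition called p53 TM after transcriptional mutagenesis. Transfected cells were sorted by GFP and their RNA was sequenced 6 h and 24 h after transfection, in 3 libraries of each condition and time. No group received O6-benzylguanine without the lesion, so effects of the drug itself and of the unrepaired lesion cannot be told apart in p53 TM, and p53 was expressed from a transfected vector in a single cell line.

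At 6 h, 2 libraries numbered replicate 2 carry titles that begin with p53 TM or p53 O6-meG and name the other condition in parentheses. Both libraries were left out of every group, which leaves 28 libraries in 10 groups, with n = 2 for these conditions at 6 h and n = 3 elsewhere. Levels are CPM, counts scaled to library size by TMM. The libraries held from 32302699 to 71950532 counts. KRT8, KRT18 and VIM, the genes listed for the carcinoma line, summed to between 2356 and 4482 CPM in a library. Leukocyte markers summed to at most 2.81 CPM and endothelial markers to at most 1.65 CPM. The level for the carcinoma line is given only as a sum and was not split by gene. VIM of the carcinoma line list (log2 fold change 0.33, adjusted P = 0.0344) and the endothelial marker VWF (1.69, adjusted P = 0.000416) were called higher with wild type p53 than with pGFP at 24 h. Both were named after their values were seen, and their part in the results was not tested. The study's methods call the replicates biological triplicates, while the labels do not say whether they were separate cultures, and P values measure the spread between these libraries. Genes were called with edgeR's quasi-likelihood test at a Benjamini-Hochberg adjusted P under 0.05 over all genes tested, with no limit on the fold.

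Death receptors sit in the plasma membrane and carry a cytoplasmic death domain. When FAS binds its ligand FASLG, or TNFRSF10A and TNFRSF10B bind TNFSF10 (TRAIL), the adaptor FADD recruits caspase 8 and starts the extrinsic route to apoptosis, which CFLAR restrains. TNFRSF10C and TNFRSF10D bind the same ligand without passing on the death signal and are called decoy receptors. TNFRSF1A, the main receptor of TNF, signals through TRADD and RIPK1 to NF-kB or to death. EDA2R binds a form of ectodysplasin A, and TNFRSF21 is a death domain receptor known from neurons and lymphocytes. PIDD1 joins CRADD and caspase 2 in the PIDDosome. FAS, TNFRSF10B and PIDD1 are textbook targets of p53, which binds DNA as a tetramer at a pair of adjacent decamer half-sites.

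The p53 response element was searched by name in the hg38 genome within 2000 bases on either side of the start of the canonical transcript of each gene. A match needed both half-sites side by side, both of their cores whole and at least 18 of 20 letters. The element reads the same on both strands. This limit was set so that the textbook element of FAS, which departs from the consensus at 2 letters, would pass, so the match of FAS is not a finding. FAS, EDA2R and TNFRSF10B each held 1 match, and the other 6 genes held none by this rule. A match was found for 240 of 14458 protein coding genes searched in the same way, or 1.66%. The match of FAS begins 511 bases and that of EDA2R 496 bases downstream of the transcript start, both in intron 1, and that of TNFRSF10B lies 390 bases downstream in intron 1. The windows of FAS and EDA2R are printed to show the letters that were matched. FAS lies on the plus strand of chromosome 10 at 88953813 to 89029605 and EDA2R on the minus strand of chromosome X at 66595637 to 66639298. The windows span chr10:88991289-88991348 and chrX:66638543-66638602 and are written 5′ to 3′ on the strand of the gene, with the matched letters in capitals. A match describes letters and says nothing of binding.
FAS: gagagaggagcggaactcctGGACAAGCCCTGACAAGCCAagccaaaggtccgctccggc
EDA2R: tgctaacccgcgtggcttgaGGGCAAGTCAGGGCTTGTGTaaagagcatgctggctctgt

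The first question was which of the 9 genes responded to wild type p53. In sorted bulk RNA, fewer responding cells and less RNA per cell cannot be told apart. FAS, the death receptor TNFRSF10A, the death receptor TNFRSF10B, the decoy TNFRSF10D, EDA2R and PIDD1 rose at 6 h, from 2.15-fold for TNFRSF10A to 6.58-fold for EDA2R, and the same 6 genes rose at 24 h, from 4.04-fold for TNFRSF10D to 20.4-fold for EDA2R. Thus 6 of 9 were called higher at each time, all by at least 2-fold, where 8.68% of all genes tested were called higher at 6 h and 20.5% at 24 h. Their log2 fold changes, taken over all 9 genes, had a median of 1.68 at 6 h and 2.02 at 24 h, against 0.02 and 0.01 for all genes tested. TNFRSF1A, TNFRSF21 and TNFRSF10C were not called at either time by this fit. With the replicate number as a block, TNFRSF1A was also called higher at 24 h (0.38, adjusted P = 9.09e-05), which made 7 of 9 genes. TNFRSF10C was called lower (-0.48, adjusted P = 0.00835). The shares of all genes given here and below come from the fit without the block, so they are no measure for counts with it. The comparisons with pGFP of 1 time share its libraries, as those with wild type p53 do. For each of the 6 genes that rose, the lowest library with wild type p53 lay above the highest pGFP library of the same time. These genes were already called higher, so this describes them and adds no support. The share of all genes so separated was not computed.

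FAS, the receptor of FASLG, stood at 13.6, 12.0 and 13.3 CPM in the pGFP libraries at 6 h and at 66.0, 64.7 and 63.7 CPM with wild type p53. At 24 h the pGFP libraries held 9.59, 11.4 and 11.04 CPM and those with wild type p53 70.4, 57.3 and 46.4 CPM. The 6 h replicates were tight and the 24 h replicates spread more widely, with no overlap between conditions at either time. The log2 fold change was 2.32 ± 0.15 (SE, adjusted P = 2.88e-11) at 6 h and 2.44 ± 0.15 (adjusted P = 6.81e-12) at 24 h, and these did not differ (difference 0.12, 95% interval -0.31 to 0.56, adjusted P = 0.845).

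TNFRSF10B, a signalling receptor of TRAIL, held 72.9, 68.8 and 69.1 CPM with pGFP at 6 h and 228, 228 and 219 CPM with wild type p53. At 24 h it held 49.6, 62.9 and 60.4 CPM with pGFP and 243, 257 and 209 CPM with wild type p53. Its log2 fold change was 1.68 ± 0.10 (adjusted P = 4.4e-12) at 6 h and 2.04 ± 0.10 (adjusted P = 1.01e-13) at 24 h, the smallest P value of the 9 genes in both comparisons. TNFRSF10A, the other signalling receptor of TRAIL, had the smallest fold change of the 6 genes at 6 h. It held 36.3, 31.4 and 34.7 CPM with pGFP and 74.8, 69.6 and 75.6 CPM with wild type p53, a log2 fold change of 1.101 ± 0.12 (adjusted P = 2.05e-07). At 24 h it held 16.9, 21.1 and 22.3 CPM with pGFP and 91.6, 82.8 and 70.6 CPM with wild type p53, a log2 fold change of 2.02 ± 0.12 (adjusted P = 5.06e-12). The levels with wild type p53 were similar at both times, and those with pGFP were lower at 24 h in every library.

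The decoy receptors of TRAIL went different ways. TNFRSF10D, whose death domain is truncated, held 63.7, 62.3 and 58.1 CPM with pGFP and 201, 206 and 191 CPM with wild type p53 at 6 h, and 66.8, 61.7 and 59.9 CPM against 296, 250 and 216 CPM at 24 h. Its log2 fold change was 1.70 ± 0.12 (adjusted P = 2.33e-10) and then 2.02 ± 0.13 (adjusted P = 5.98e-12), close to that of TNFRSF10B. TNFRSF10C, which is anchored in the membrane by a lipid and has no cytoplasmic domain, did not rise. It stood at 2.37, 2.21 and 2.32 CPM with pGFP and 2.04, 1.71 and 2.09 CPM with wild type p53 at 6 h (log2 fold change -0.24 ± 0.19, adjusted P = 0.615). At 24 h it stood at 3.90, 3.62 and 3.90 CPM with pGFP and at 2.42, 3.03 and 2.75 CPM with wild type p53, and the conditions did not overlap at either time. The log2 fold change there was -0.47 ± 0.19 with an adjusted P of 0.0503, just past the threshold. It was called lower by DESeq2 (-0.50, adjusted P = 0.02993) and with the replicate number as a block (-0.48, adjusted P = 0.00835), and under 14 of 35 other settings in all. TNFRSF10C shares 18.7% of its canonical exons with a long noncoding RNA and 17.8% with a protein coding gene on the same strand, neither of them in the count table. It shares 27.9% of the 75-base stretches of its canonical transcript with other annotated transcripts, and how the counting treated such reads is not given in the sources used here. It had between 71 and 199 reads in a library. TNFRSF10A, TNFRSF10B, TNFRSF10C and TNFRSF10D lie side by side on chromosome 8 between 23020133 and 23225102 in hg38, with TNFRSF10C on the plus strand and the other 3 on the minus strand.

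EDA2R held the fewest reads of the 9 genes. At 6 h the pGFP libraries had 2, 2 and 5 reads and those with wild type p53 9, 18 and 37, and at 24 h the numbers were 4, 7 and 4 against 114, 121 and 86. In CPM this was 0.106, 0.159 and 0.0918 with pGFP and 2.85, 2.60 and 2.04 with wild type p53 at 24 h. EDA2R thus showed the largest log2 fold changes of the 9 genes, 2.72 ± 0.52 (adjusted P = 0.000544) at 6 h and 4.35 ± 0.40 (adjusted P = 4.32e-09) at 24 h, from the lowest levels. PIDD1 was well covered. It held 16.8, 17.9 and 17.0 CPM with pGFP and 79.9, 81.9 and 87.6 CPM with wild type p53 at 6 h, and 12.9, 14.7 and 13.7 CPM against 161, 147 and 114 CPM at 24 h. Its log2 fold change was 2.27 ± 0.22 (adjusted P = 2.54e-08) at 6 h and 3.35 ± 0.23 (adjusted P = 2.7e-11) at 24 h. PIDD1 lies on the minus strand of chromosome 11 at 799179 to 809753.

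TNFRSF1A on chromosome 12 (6328757 to 6342114, minus strand) and TNFRSF21 on chromosome 6 (47231532 to 47309905, minus strand) were not called with wild type p53 in the fit without the block. TNFRSF1A held 63.5, 60.3 and 61.9 CPM with pGFP and 73.9, 69.2 and 73.0 CPM with wild type p53 at 6 h, and 43.0, 74.98 and 70.7 CPM against 60.8, 101 and 81.5 CPM at 24 h. At 24 h replicate 1 was the lowest library of TNFRSF1A in all 5 conditions and replicate 2 the highest. The log2 fold change was 0.22 (95% interval -0.24 to 0.68, adjusted P = 0.719) at 6 h and 0.37 (-0.09 to 0.83, adjusted P = 0.212) at 24 h, and with the replicate number as a block the 24 h value of 0.38 had an adjusted P of 9.09e-05. With p53 O6-meG the blocked value at 24 h was 0.31 (adjusted P = 0.000965). At 24 h libraries with the same number deviated together in every pair of groups, so the numbers were taken to pair the libraries. TNFRSF21 held 13.8, 16.2 and 16.4 CPM with pGFP and 14.3, 15.6 and 14.8 CPM with wild type p53 at 6 h, and 10.4, 10.9 and 13.5 CPM against 8.84, 10.9 and 15.6 CPM at 24 h. Its log2 fold change was -0.05 (-0.39 to 0.28) at 6 h and 0.02 (-0.33 to 0.36) at 24 h.

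**Figure D1:**
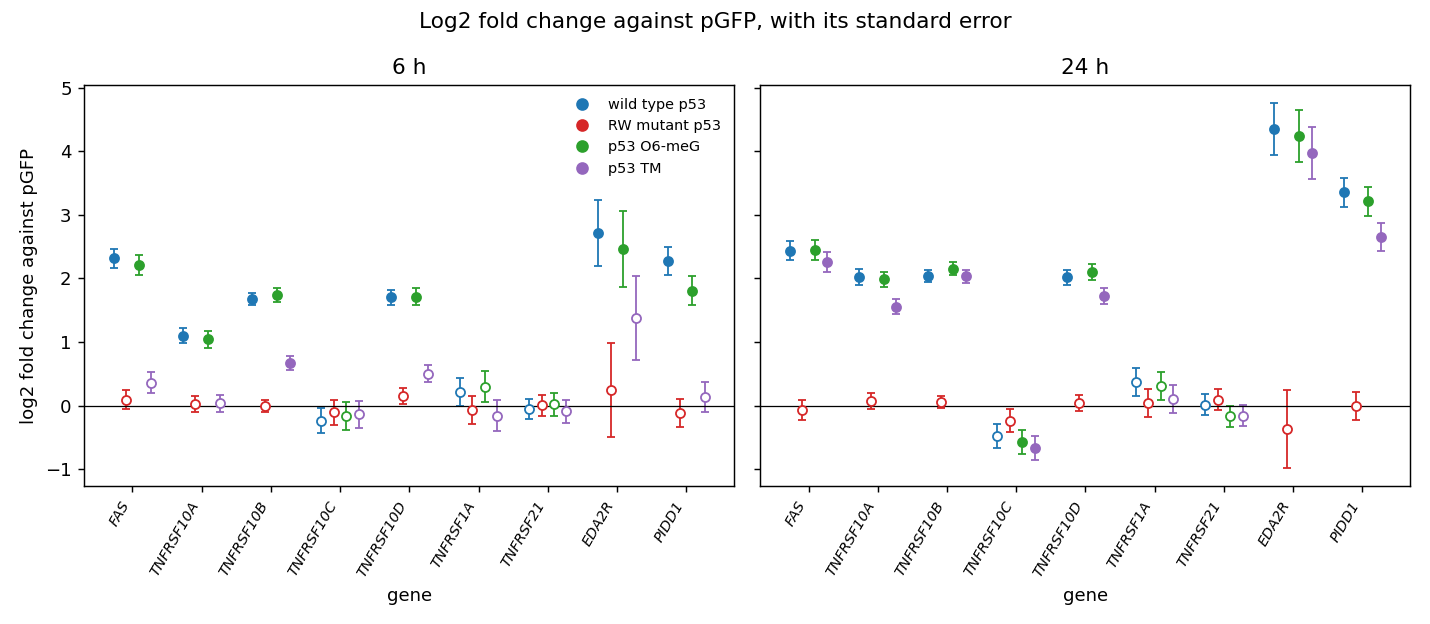
Log2 fold change of each gene against pGFP (vertical axis) at 6 h and 24 h, with its standard error, for the 4 p53 conditions, where filled points have an adjusted P under 0.05 and open points do not. RW mutant p53 lies between -0.37 and 0.25 for all 9 genes. For the 6 genes that rose with wild type p53, p53 TM is lower at 6 h and is called for each of them at 24 h. The 6 h difference of EDA2R between p53 TM and wild type p53 was not called.

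RW mutant p53, a hotspot mutant known for impaired DNA binding, was the reference for mutated protein. None of the 9 genes was called against pGFP in either direction at 6 h or at 24 h by edgeR, none had an unadjusted P under 0.05, and DESeq2 also called 0 at both times. Over all genes tested, 1 was called at each time, or 0.00469%. FAS held 13.7, 14.2 and 13.7 CPM at 6 h and 9.52, 10.9 and 10.1 CPM at 24 h, TNFRSF10B between 68.8 and 70.4 CPM at 6 h and between 52.9 and 65.2 CPM at 24 h, and PIDD1 between 15.04 and 16.7 CPM at 6 h and between 13.04 and 14.2 CPM. At 6 h all 3 libraries of FAS lay just above those of pGFP and all 3 of PIDD1 just below. The share of all genes so ordered was not computed, and no difference is read from it. The log2 fold changes of the 9 genes ran from -0.12 for PIDD1 to 0.25 for EDA2R at 6 h and from -0.37 for EDA2R to 0.09 for TNFRSF21 at 24 h. The intervals were narrow for TNFRSF10B (-0.21 to 0.19 at 6 h) and wide for EDA2R (-1.30 to 1.79), whose libraries held 5, 1 and 3 reads.

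The vector with the lesion in cells with active AGT, p53 O6-meG, raised the same 6 genes against pGFP at both times, where 4.32% of all genes tested were called higher at 6 h and 18.1% at 24 h. FAS held 62.7 and 57.6 CPM at 6 h and 68.0, 59.2 and 48.3 CPM at 24 h, TNFRSF10B 225 and 244 CPM and then 266, 275 and 231 CPM, and PIDD1 59.6 and 61.0 CPM and then 171, 121 and 90.7 CPM. Against wild type p53 none of the 9 genes was called lower at 6 h, when 0.00% of all genes tested were, or at 24 h, when 0.00937% were, and none had an unadjusted P under 0.05 at either time. DESeq2 called 0 of them lower as well. Both libraries of FAS and of PIDD1 at 6 h lay below all 3 with wild type p53. With 2 libraries against 3 such an order can arise without a difference, and the share of all genes so ordered was not computed. The larger difference was that of PIDD1 (log2 difference -0.46, 95% interval -0.95 to 0.03, adjusted P = 0.511, and adjusted P = 0.0481 in a fit of these groups alone). The call of EDA2R at 6 h (2.46 ± 0.60, adjusted P = 0.0128) was lost without replicate 1 or 2 of pGFP (2.27 and 2.32) or replicate 3 of p53 O6-meG (2.15). TNFRSF10C fell at 24 h, where 11.3% of all genes were called lower, with 2.08, 3.16 and 2.38 CPM and a log2 fold change of -0.58 ± 0.19 (adjusted P = 0.0222). That call was lost without replicate 1 or 3 of either group, with log2 fold changes from -0.56 to -0.45, and when only these groups were fitted (adjusted P = 0.0611).

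With p53 TM at 6 h only TNFRSF10B of the 9 genes was called higher than pGFP, where 0.192% of all genes tested were. It held 114 and 110 CPM against 72.9, 68.8 and 69.1 CPM with pGFP and 228, 228 and 219 CPM with wild type p53, so it stood between them with no overlap. The log2 fold change was 0.67 ± 0.11 (adjusted P = 0.00137) and the call was lost without replicate 1 of p53 TM (0.65, adjusted P = 0.0636). TNFRSF10B was also the only 1 of the 9 called higher than with RW mutant p53 (0.68 ± 0.11, adjusted P = 0.00226), where 0.145% of all genes were, and this too was lost without replicate 1 of p53 TM (0.66, adjusted P = 0.08975). The decoy TNFRSF10D held 86.9 and 87.0 CPM, above all 3 pGFP libraries, with a log2 fold change of 0.50 ± 0.13 (adjusted P = 0.213). FAS at 16.8 and 16.6 CPM also lay above all 3 pGFP libraries (0.36 ± 0.16, adjusted P = 0.808), whereas TNFRSF10A at 35.8 and 34.5 CPM and PIDD1 at 16.6 and 21.1 CPM overlapped them.

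Against wild type p53, p53 TM at 6 h left 5 genes lower, where 8.14% of all genes tested were called lower. These were PIDD1 (log2 difference -2.14 ± 0.25, adjusted P = 1.31e-06), FAS (-1.95 ± 0.17, adjusted P = 1.83e-08), TNFRSF10D (-1.20 ± 0.14, adjusted P = 1.17e-06), TNFRSF10A (-1.06 ± 0.14, adjusted P = 4.6e-06) and TNFRSF10B (-1.01 ± 0.11, adjusted P = 3.94e-07). All 5 differences were at least 2-fold. EDA2R, with 3 and 13 reads, had a log2 difference of -1.34 ± 0.49 and an adjusted P of 0.0892, and was called without replicate 1 of wild type p53 (-1.61) or replicate 3 of p53 TM (-2.52). The same 5 genes were lower than with p53 O6-meG, which received the same vector without O6-benzylguanine, by -1.002 for TNFRSF10A to -1.85 for FAS, where 3.37% of all genes were called lower. All these calls at 6 h rest on the libraries whose titles do not conflict. If the other 2 were placed by the genotype field of their labels, p53 TM would have 0 genes lower than wild type p53 and 0 lower than p53 O6-meG, and if placed by the name that opens each title, 6 and 5. FAS stood at 15.9 CPM in the library whose title begins with p53 TM, against 16.8 and 16.6 CPM in the p53 TM libraries. It stood at 62.4 CPM in the library whose title begins with p53 O6-meG, against 62.7 and 57.6 CPM in those of p53 O6-meG. The count table names its columns by the openings of the titles. Neither library was given a group from its values.

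**Figure D2:**
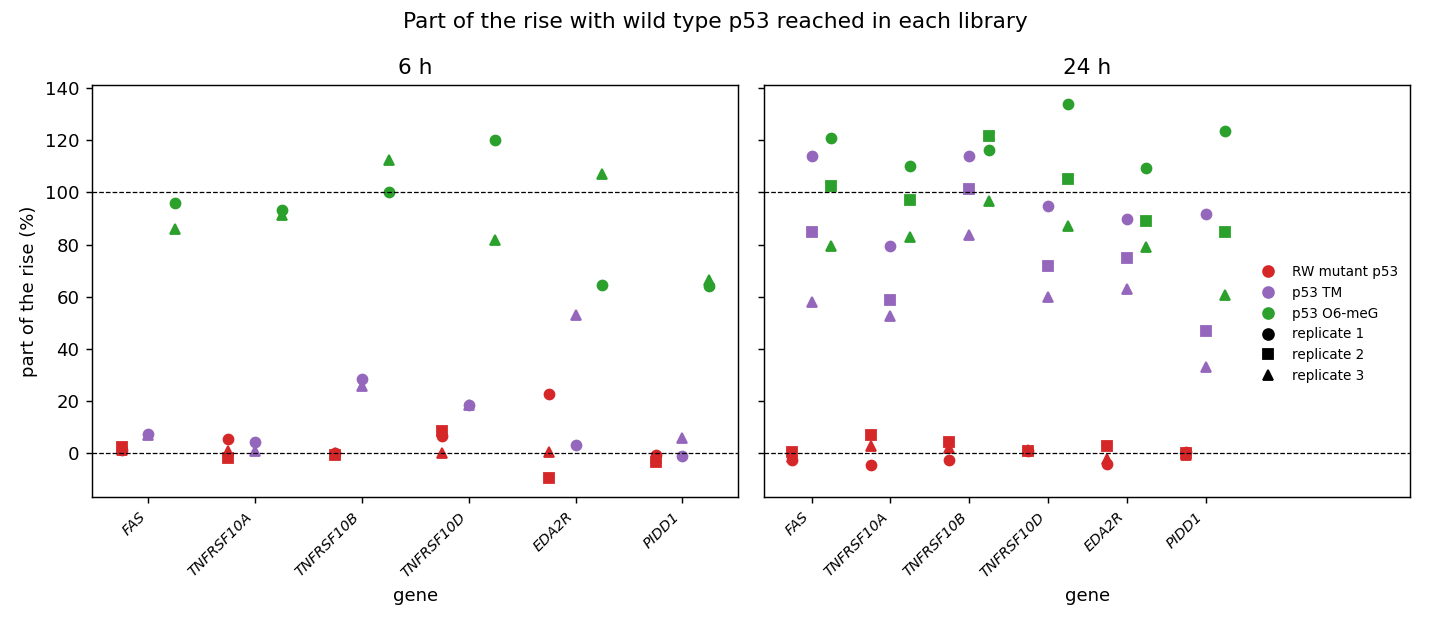
Part of the rise with wild type p53 reached in each library (vertical axis, percent), where 0 is the mean of pGFP and 100 the mean of wild type p53 of the same time (dashed lines), for the 6 genes that rose. Colours give the condition and symbols the replicate. At 6 h p53 TM lies below 30% except for 1 library of EDA2R at 52.9%, and at 24 h it lies between 33.0% and 114%.

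The level with p53 TM was also expressed as a part of the rise with wild type p53 over pGFP, as a description with no test. At 6 h it reached 2.43% ± 2.33 (SD, n = 2) for TNFRSF10A, 2.45% ± 4.89 for PIDD1, 7.17% ± 0.215 for FAS, 18.5% ± 0.0316 for TNFRSF10D and 27.02% ± 1.87 for TNFRSF10B. EDA2R reached 3.22% in replicate 1 and 52.9% in replicate 3. At 24 h the part was 57.3% ± 30.8 (SD, n = 3) for PIDD1, 63.5% ± 14.1 for TNFRSF10A, 75.5% ± 17.9 for TNFRSF10D, 75.8% ± 13.4 for EDA2R, 85.55% ± 27.9 for FAS and 99.6% ± 15.3 for TNFRSF10B. TNFRSF10B thus had the highest part at 24 h, and PIDD1 and TNFRSF10A the lowest at both times. The libraries of p53 TM at 24 h differed among themselves. Their medians over the 6 genes were 93.4% in replicate 1, 73.3% in replicate 2 and 58.9% in replicate 3. Those of p53 O6-meG fell in the same order, with medians of 119%, 99.8% and 81.2%. Against the same mean, FAS with wild type p53 itself stood at 126%, 98.6% and 75.4%, whereas TNFRSF10B was highest in replicate 2. The SDs at 24 h thus include a spread shared by replicate number, and the parts were not taken within pairs. With p53 O6-meG the part ran from 65.4% ± 1.61 (PIDD1) to 106% ± 8.75 (TNFRSF10B) at 6 h and from 89.6% ± 31.9 (PIDD1) to 111% ± 13.1 (TNFRSF10B) at 24 h. At 6 h the median over the 6 genes was 5.70% and 12.8% in the libraries of p53 TM and 94.6% and 88.8% in those of p53 O6-meG. It was 11.9% in the library whose title begins with p53 TM and 95.4% in that whose title begins with p53 O6-meG. In the former library TNFRSF10D reached 24.1% and TNFRSF10B 18.2%, the reverse of their order in the p53 TM libraries. The other genes there stood at -4.95% (TNFRSF10A), 0.315% (PIDD1), 5.57% (FAS) and 27.3% (EDA2R). The SDs at 6 h rest on 2 libraries, so they and the order of these genes are uncertain.

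At 24 h p53 TM raised the same 6 genes as wild type p53 over pGFP, where 9.0% of all genes tested were called higher, and over RW mutant p53, where 8.47% were. FAS held 64.6, 50.8 and 38.2 CPM, TNFRSF10B 261, 239 and 207 CPM, TNFRSF10D 244, 200 and 177 CPM, and EDA2R 2.25, 1.90 and 1.62 CPM. TNFRSF10A held 69.0, 56.2 and 52.5 CPM and PIDD1 131, 73.3 and 55.7 CPM. Replicate 1 was the highest library for each of these 6 genes, and the log2 fold changes over pGFP ran from 1.56 ± 0.12 for TNFRSF10A to 3.97 ± 0.41 for EDA2R. TNFRSF10C was lower than with pGFP (2.05, 2.78 and 2.36 CPM, log2 fold change -0.67 ± 0.19, adjusted P = 0.0199), where 1.68% of all genes were called lower. That call was lost without replicate 1 or 3 of either group, with log2 fold changes from -0.66 to -0.57, and when only these groups were fitted (adjusted P = 0.05097).

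The edgeR fit without the block, which does not use the pairing by replicate number, called 2 genes lower with p53 TM than with wild type p53 at 24 h. These were TNFRSF10A (log2 difference -0.46 ± 0.12, adjusted P = 0.00595) and PIDD1 (-0.70 ± 0.21, adjusted P = 0.0151), where 11.9% of all genes tested were called lower. For TNFRSF10A the groups did not overlap. For PIDD1 replicate 1 of p53 TM (131 CPM) lay above replicate 3 of wild type p53 (114 CPM). Between libraries of the same number, PIDD1 was lower with p53 TM each time. The values were 131 against 161 CPM, 73.3 against 147 CPM and 55.7 against 114 CPM. The call of PIDD1 was lost without replicate 1 of wild type p53 (-0.60) or replicate 2 or 3 of p53 TM (-0.60 and -0.47), and both calls were lost when only these groups were fitted (adjusted P = 0.06175 and 0.152). With the replicate number as a block 4 genes were called, with TNFRSF10D (-0.29, adjusted P = 0.00169) and TNFRSF1A (-0.26, adjusted P = 0.00519) added. PIDD1 was then at -0.76 (adjusted P = 6.2e-05) and TNFRSF10A at -0.46 (adjusted P = 0.00081). The 11.9% of all genes belongs to the fit without the block. DESeq2 called TNFRSF10D too (-0.33, adjusted P = 0.04432). Without replicate 1 of p53 TM, FAS (-0.39) and TNFRSF10D (-0.43) were called as well, and without replicate 3 of wild type p53, TNFRSF10D (-0.40). TNFRSF10B differed from wild type p53 by -0.01 (95% interval -0.20 to 0.19). The endothelial marker VWF was also lower with p53 TM than with wild type p53 at 24 h (-2.20, adjusted P = 0.000129), the markers of its list summing to between 0.301 and 0.876 CPM against 1.51 to 1.65 CPM, and its part in the result was not tested. Against p53 O6-meG, where 6.58% of all genes were called lower, TNFRSF10A (-0.43 ± 0.12, adjusted P = 0.0206) and TNFRSF10D (-0.39 ± 0.12, adjusted P = 0.0405) were lower at 24 h. Each of these 2 calls was lost without replicate 1 or 2 of p53 O6-meG or replicate 2 or 3 of p53 TM, with values from -0.43 to -0.35 for TNFRSF10A and from -0.41 to -0.25 for TNFRSF10D. PIDD1 (-0.56 ± 0.21, adjusted P = 0.084) was called by DESeq2 (-0.59, adjusted P = 0.03525), and without replicate 1 of p53 TM (-0.99) or replicate 3 of p53 O6-meG (-0.76). The block added PIDD1 (-0.59, adjusted P = 0.00174) and TNFRSF1A (-0.19, adjusted P = 0.0478), and TNFRSF10C against RW mutant p53 (-0.42, adjusted P = 0.0433), which was also called without replicate 3 of RW mutant p53 (-0.62).

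The change of the p53 TM difference from 6 h to 24 h was tested itself, as the difference from wild type p53 at 24 h less that at 6 h. It was above 0 for FAS (log2 1.77 ± 0.22, adjusted P = 3.6e-05), PIDD1 (1.43 ± 0.32, adjusted P = 0.0139), TNFRSF10B (1.00 ± 0.14, adjusted P = 0.000174) and TNFRSF10D (0.91 ± 0.18, adjusted P = 0.00645), 4 of 9 genes where 1.27% of all genes tested were called in this direction. TNFRSF10A had a smaller value (0.60 ± 0.18, adjusted P = 0.109) and EDA2R an uncertain one (0.96 ± 0.57, adjusted P = 0.609). The call of PIDD1 was lost without replicate 1 of p53 TM at 6 h (1.27) and when only these groups were fitted (adjusted P = 0.108), and the block added TNFRSF10A (0.64, adjusted P = 0.01225). All 4 calls were lost when the libraries with conflicting titles were placed by the genotype field. So were the calls, given next, of a larger rise with wild type p53 at 24 h than at 6 h. The libraries of that rise are the same under each placement, which can act on it only through the fit shared by all groups and the set of genes tested. The rise with wild type p53 was larger at 24 h than at 6 h for TNFRSF10A (0.92 ± 0.17, adjusted P = 0.0017) and PIDD1 (1.08 ± 0.30, adjusted P = 0.0283), where 3.73% of all genes were called. The call of PIDD1 was lost without any single one of the pGFP or wild type p53 libraries except replicate 2 of pGFP and replicate 3 of wild type p53 at 24 h and replicate 3 of wild type p53 at 6 h, with values from 0.975 to 1.103. The block added TNFRSF10B (0.35, adjusted P = 0.0252) and TNFRSF10D (0.30, adjusted P = 0.03845).

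In the pGFP libraries themselves TNFRSF10A was lower at 24 h than at 6 h (log2 -0.76 ± 0.12, adjusted P = 2.15e-05), as were TNFRSF10B (-0.29 ± 0.10, adjusted P = 0.0193) and TNFRSF21 (-0.41 ± 0.16, adjusted P = 0.0454), where 22.3% of all genes tested were called lower. TNFRSF10C was higher (0.73 ± 0.19, adjusted P = 0.00296), where 19% were called higher. The calls of TNFRSF10B and TNFRSF21 were lost with DESeq2's size factors (-0.23 and -0.36), and also without replicate 1 of pGFP at 24 h (-0.19 and -0.34). That of TNFRSF10B was lost without replicate 1 of pGFP at 6 h (-0.26) too, and that of TNFRSF21 without any of 11 single libraries, with values from -0.41 to -0.34. Markers moved with time in the same libraries. The carcinoma marker KRT18 was lower in pGFP at 24 h than at 6 h (-0.82, adjusted P = 1.25e-05), and the leukocyte markers CD14 and LYZ and the endothelial markers VWF and PECAM1 were higher, by 1.46 to 2.44 on the log2 scale. All were named after their values were seen, and their part in the result was not tested. The leukocyte markers summed to between 0.750 and 0.802 CPM at 6 h and between 2.07 and 2.36 CPM at 24 h. For TNFRSF10A the larger fold with wild type p53 at 24 h went with a lower control level, while the level with wild type p53 was 73.3 CPM on average at 6 h and 81.7 CPM at 24 h. For PIDD1 the mean with wild type p53 was 83.1 CPM at 6 h and 141 CPM at 24 h, and for EDA2R it was 0.389 and 2.497 CPM.

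Levels of different genes can be compared only per length. Divided by the merged exons of the gene in kb, TNFRSF10D had the highest level with pGFP at 6 h (17.4 ± 0.823 CPM per kb), followed by TNFRSF1A (14.7 ± 0.376), TNFRSF10B (14.02 ± 0.464) and TNFRSF10A (11.7 ± 0.853). TNFRSF1A and TNFRSF10B were within their spread of each other. TNFRSF21 (4.30 ± 0.401), PIDD1 (2.94 ± 0.101), TNFRSF10C (1.49 ± 0.0539), FAS (0.443 ± 0.0288) and EDA2R (0.0158 ± 0.00720) followed. With wild type p53 at 24 h TNFRSF10D stood at 71.8 ± 11.3 and TNFRSF10B at 47.2 ± 4.90 CPM per kb, and EDA2R remained the lowest at 0.691 ± 0.115. The order depends on the length used. The lengths come from a later GENCODE release than the one the study's methods name for counting. They need not match the exons that were counted. The annotation gives FAS 29.3 kb of merged exons but 3.70 kb in its canonical transcript, and by the canonical transcript TNFRSF1A led with pGFP at 6 h (28.5 ± 0.727 CPM per kb) and FAS stood at 3.52 ± 0.228, above TNFRSF10C.

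Across the 28 libraries the log2 CPM of the genes that rose followed one another, with Pearson's r from 0.79 for TNFRSF10A with EDA2R to 0.98 for FAS with TNFRSF10B. These correlations describe libraries that share the same 10 groups. TNFRSF10C had r between -0.48 and -0.03 with those genes and TNFRSF1A between 0.40 and 0.48. TNFRSF21 had r between -0.55 and -0.17 with the genes that rose. Over the same libraries the 2 tested genes most like FAS were TIGAR (r = 0.992) and ENSG00000260912 (r = 0.990), those most like TNFRSF10B were DDB2 (r = 0.993) and TIGAR (r = 0.990), and those most like TNFRSF10D were ISCU (r = 0.995) and TIGAR (r = 0.991). PIDD1 was most like NADSYN1 (r = 0.997) and DRAM1 (r = 0.994), TNFRSF10A most like TMEM68 (r = 0.9875) and MAMDC4 (r = 0.9835), and EDA2R most like APOBEC3C (r = 0.964) and ASTN2 (r = 0.963). TNFRSF21, TNFRSF1A and TNFRSF10C had less close likenesses, with r at most 0.926 for TNFRSF21 with AFAP1, 0.877 for TNFRSF1A with ZBED1 and 0.850 for TNFRSF10C with NEURL1B.

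FASLG, TNFSF10 and TNF held few reads in the libraries. FASLG was not tested and had 0 reads in every pGFP, wild type p53 and p53 TM library except for 2 reads in 1 library of wild type p53 at 24 h. TNFSF10, the ligand of the TRAIL receptors, had between 1 and 3 reads in a pGFP library at 6 h and between 6 and 16 at 24 h, and it was not called with wild type p53 (log2 fold change -0.04, 95% interval -1.65 to 1.57 at 24 h). TNF had at most 1 read in a pGFP library at 6 h and between 1 and 14 at 24 h, with -0.21 (-1.65 to 1.23). LTA, another ligand of TNFRSF1A and named after its values were seen, had between 13 and 21 reads in a pGFP library at 6 h and between 57 and 81 at 24 h, with 0.19 (-0.66 to 1.04). All 4 ligands tested (TNFSF10, LTA, TNF and EDA) were called higher in pGFP at 24 h than at 6 h, with a median log2 change of 2.54 against 0.00 for all genes tested, of which 19% were called higher. Of these 4, only EDA, which encodes ectodysplasin A, was called with wild type p53, at 24 h, where 20.5% of all genes were called higher. The median log2 fold change of the 4 was 0.38 at 6 h and 0.08 at 24 h. It held 0.637, 0.974 and 0.735 CPM with pGFP and 4.12, 3.72 and 2.47 CPM with wild type p53 at 24 h (log2 fold change 2.13 ± 0.36, adjusted P = 3.17e-05), and it was not called at 6 h (0.01 ± 0.47). With p53 TM at 24 h EDA held 1.35, 0.972 and 0.908 CPM and was lower than with wild type p53 (-1.68 ± 0.34, adjusted P = 0.000955).

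Of 5 further receptors tested, NGFR was called higher with wild type p53 at 6 h, and TNFRSF25, EDAR and NGFR were called higher and TNFRSF11B lower at 24 h. Of all genes tested, 8.68% were called higher at 6 h and 20.5% at 24 h, and the median log2 fold change of the 5 receptors was 0.07 and 1.42, with EDAR taken at its fitted value. TNFRSF25, a death domain receptor of lymphocytes, held 11.4, 12.5 and 11.4 CPM with pGFP and 33.7, 33.0 and 27.3 CPM with wild type p53 at 24 h (1.42 ± 0.21, adjusted P = 6.3e-06). With p53 TM it was lower than with wild type p53 at both times, by -1.49 ± 0.25 (adjusted P = 0.000124) at 6 h and -0.81 ± 0.21 (adjusted P = 0.00589) at 24 h. At 6 h its libraries of p53 TM held 6.15 and 7.39 CPM, below all 3 pGFP libraries of between 11.9 and 12.9 CPM, although the difference from pGFP was not called (-0.86 ± 0.24, adjusted P = 0.282). NGFR rose by 1.62 ± 0.25 (adjusted P = 9.29e-06) and the decoy TNFRSF11B fell by 0.84 on the log2 scale (adjusted P = 0.00711) at 24 h. EDAR, the receptor of the other form of ectodysplasin A, had 0 reads in all pGFP libraries at 24 h and 12, 18 and 1 reads with wild type p53, against 1, 0 and 0 with p53 TM.

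Of 13 components of the receptor complexes and the PIDDosome, 4 were called higher with wild type p53 at both times: CFLAR, CASP10, RIPK1 and BID. Called higher among all genes tested were 8.68% at 6 h and 20.5% at 24 h, and the median log2 fold change of the 13 was -0.07 and -0.096, against 0.02 and 0.01 for all genes. CFLAR, the inhibitor of caspase 8 at the receptor, held 48.2, 48.1 and 50.6 CPM with pGFP and 135, 110 and 97.9 CPM with wild type p53 at 24 h (1.22 ± 0.12, adjusted P = 1.92e-08). With p53 TM CFLAR was lower than with wild type p53 at 6 h (-0.75 ± 0.14, adjusted P = 0.000485) and at 24 h (-0.44 ± 0.12, adjusted P = 0.0106). CASP10, a caspase related to caspase 8, rose by 1.99 ± 0.32 (adjusted P = 1.66e-05) from about 10 reads in each pGFP library. BID, which links the receptors to mitochondria, rose by 1.27 ± 0.10 (adjusted P = 5.96e-10) and RIPK1 by 0.30 ± 0.06 (adjusted P = 0.000111) at 24 h. FADD (-0.28, 95% interval -0.59 to 0.02), CASP8 (-0.20, -0.40 to 0.00) and the PIDD1 partner CRADD (-0.11, -0.43 to 0.21) were not called at 24 h.

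CASP2, the caspase of the PIDDosome, fell with wild type p53 at 24 h. It held 37.9, 30.8 and 33.7 CPM with pGFP and 21.5, 20.1 and 23.4 CPM with wild type p53 at 24 h, with a log2 fold change of -0.65 ± 0.13 (adjusted P = 0.000204). With p53 TM it held 28.1, 28.8 and 25.9 CPM, above all 3 libraries of wild type p53, with a difference of 0.35 ± 0.13 and an adjusted P of 0.0523. Of 7 NF-kB feedback and target genes, NFKBIE was called higher with wild type p53 at both times (0.79 ± 0.10 and 0.99 ± 0.10, adjusted P = 1.62e-06 and 1.55e-08) and NFKBIA, named after its value was seen, was called lower at 6 h (-0.73 ± 0.22, adjusted P = 0.0289). The median log2 fold change of the 7 was -0.06 at 6 h and 0.20 at 24 h, and 1 of 7 called higher stands against 8.68% and 20.5% of all genes. The shares called lower, for CASP2 at 24 h and NFKBIA at 6 h, are not given here. With RW mutant p53 none of the genes of these lists was called at either time, and with p53 TM at 6 h none was called against pGFP.

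**Figure D3:**
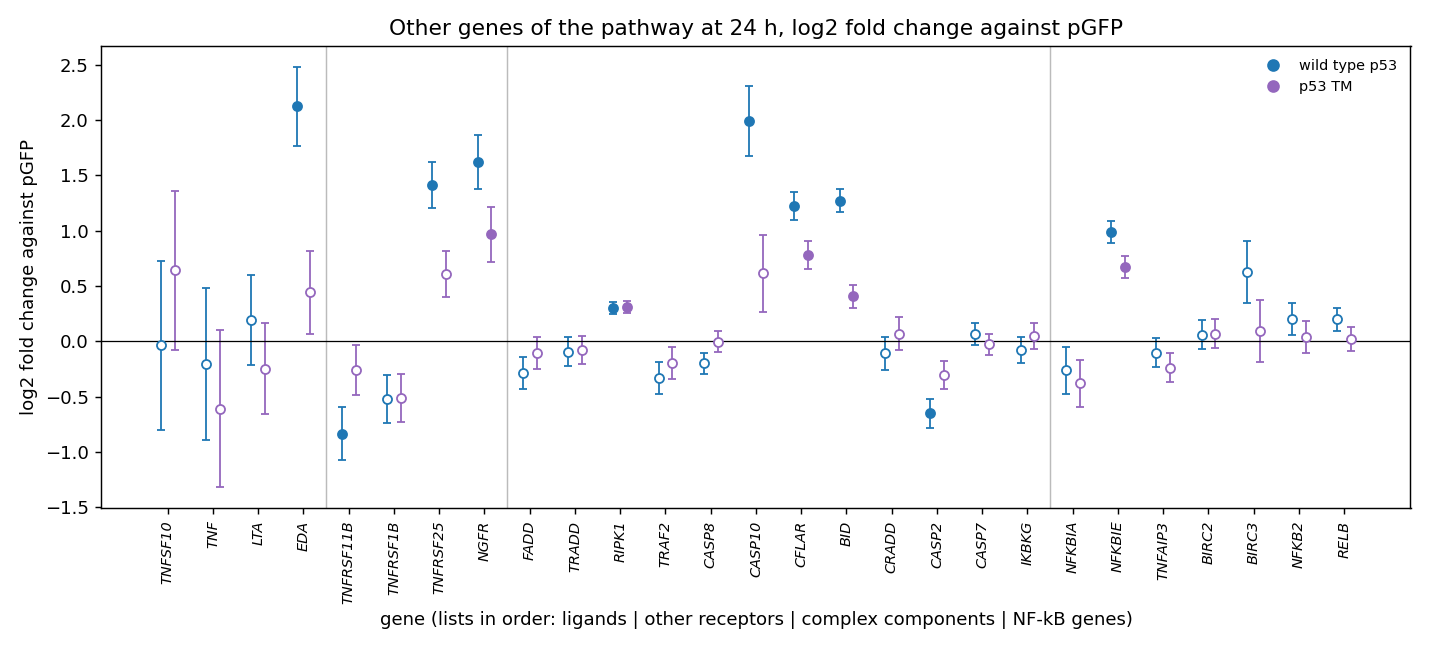
Log2 fold change against pGFP at 24 h (vertical axis), with its standard error, for other tested genes of the pathway with wild type p53 and p53 TM, in the order ligands, further receptors, complex components and NF-kB genes. Filled points have an adjusted P under 0.05, and EDAR, with 0 reads in all pGFP libraries, is not drawn. Of the genes drawn, EDA, CASP10, BID and TNFRSF25 show the widest gaps between the conditions.

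Counting could mix some of these genes with their neighbours, since the libraries were made with a stranded kit but whether reads were counted by strand is not given in the sources used here. TNFRSF10B shares 9.43% of its canonical exons with RHOBTB2 on the opposite strand (median of 685 reads in a library), and TNFRSF10A shares 8.33% with TNFRSF10A-AS1 (median of 0 reads) and 5.06% with TNFRSF10A-DT (median of 367.5 reads). FAS shares 2.95% with a long noncoding RNA. PIDD1 shares 0.235% with PANO1. The canonical exons of TNFRSF10D, TNFRSF1A, TNFRSF21 and EDA2R share no bases with exons of another annotated gene. Exons outside the canonical transcripts were not checked. The annotation searched was a later GENCODE release than the one the study's methods name for counting.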

How the data were processed

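RNA-seq was run on 30 libraries of sorted H1299 cells. Per the labels and the study's methods, the authors aligned reads with STAR 2.5.3a to hg38 and counted them per gene with featureCounts of Subread 1.5.2. The deposited values are raw counts, whole numbers with no normalization, and DESeq2 1.20 is also named in the submitters' processing notes. The strand setting is not given in the sources used here. From 32302699 to 71950532 counts per library set the precision, and 38904 of 39359 identifiers matched a symbol.

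Counts were scaled by TMM over all 30 libraries, filtered with filterByExpr and fitted with edgeR 4.0.16 in R 4.3.3 as 1 model of 10 groups over 28 libraries (18 residual degrees of freedom). The 2 libraries with conflicting titles entered no group. P values were adjusted by the Benjamini-Hochberg method over 21335 genes, and all intervals are at 95%. Log2 CPM used a prior count of 2. The method was tested on simulated data made from the comparison of wild type p53 with pGFP at 6 h, over 20491 genes, where edgeR recovered 97% of 66 genes changed by 4-fold, 79.1% of 67 changed by 2-fold and 52.2% of 67 changed by 1.5-fold, with 5 false calls. Replicate libraries of a group were compared pairwise, and all 26 pairs differed by more than sampling noise.

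The 9 genes and the gene lists were chosen with earlier results of these data known. Genes of the pathway are named from 4 lists (ligands, further receptors, complex components and NF-kB genes) if called with wild type p53 against pGFP at 24 h, or if they were FASLG, TNFSF10, TNF, FADD, CASP8, CFLAR, CRADD or CASP2, and exceptions are marked. Some results are not reported here. For each of the 9 genes the 2 tested genes with the highest Pearson's r of log2 CPM are named. The p53 site search was added after values were seen and run in 1 version. Levels per kb of the canonical transcript were also added after values were seen, because the merged exons of FAS are many times longer.

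Alternatives were DESeq2 1.42.0 and its size factors, every gene with at least 1 count, a block by replicate number within each time, fits limited to the groups of each comparison, both placements of the 2 libraries and leaving out each library. The block was coded to sum to 0 after a first coding was seen to shift comparisons across times. The pairing was checked from deviations of libraries from their group means. At 24 h all 30 pairs of libraries with the same number correlated over 0.1 (0.182 to 0.613, median 0.422) and the numbers were taken as pairs. The fit without the block and its intervals do not use these pairs. At 6 h 5 of 9 did (-0.000591 to 0.219, median 0.125), against 1 of 18 pairs of different numbers (median -0.0489). Since not all did, the 6 h numbers were not taken as pairs, and a weaker pairing was not tested.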

Additional observations from a re-analysis of the deposited data

Results flagged for a closer look

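Some differences between conditions changed with time by an edgeR test of the change itself, with adjusted P values. The rise with wild type p53 was larger at 24 h than at 6 h for TNFRSF10A (log2 0.92, adjusted P = 0.0017) and PIDD1 (1.08, adjusted P = 0.0283). The deficit of p53 TM against wild type p53 became smaller for FAS (1.77, adjusted P = 3.6e-05), PIDD1 (1.435, adjusted P = 0.0139), TNFRSF10B (1.00, adjusted P = 0.000174) and TNFRSF10D (0.91, adjusted P = 0.00645).

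The 2 libraries at 6 h with conflicting titles, which no comparison used, held some of the genes above all 3 pGFP libraries of that time. The library whose title begins with the name of p53 TM held 15.9 CPM of FAS, 98.4 CPM of TNFRSF10B, 94.7 CPM of TNFRSF10D and 0.148 CPM of EDA2R (6 reads). The library whose title begins with the name of p53 O6-meG held 62.4 CPM of FAS, 68.4 CPM of TNFRSF10A, 233 CPM of TNFRSF10B, 237 CPM of TNFRSF10D, 65.8 CPM of TNFRSF1A, 0.373 CPM of EDA2R and 71.4 CPM of PIDD1.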

How the results depend on the processing

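Counts of called genes moved under these settings. With the 2 libraries of conflicting titles placed by the genotype field, p53 O6-meG against pGFP at 6 h went from 6 to 3 genes. The same placement left 0 genes for p53 TM against pGFP, against RW mutant p53, against wild type p53 and against p53 O6-meG at 6 h, for p53 TM against wild type p53 and against p53 O6-meG at 24 h, for the larger rise with wild type p53 at 24 h and for the change of the p53 TM difference. Neither library belongs to a group of the 24 h comparisons or of the rise with wild type p53. There the placement can act only through the fit shared by all groups and the set of genes tested. Placed by the first part of the title, p53 TM against pGFP at 6 h gave 2 genes. Fitting only the groups compared gave 2 genes for p53 TM against pGFP at 6 h, 1 for p53 O6-meG against wild type p53 at 6 h, and 0 for p53 TM against wild type p53 and against p53 O6-meG at 24 h. With the replicate number as a block, 7 genes in place of 6 were called higher for wild type p53 and for p53 O6-meG against pGFP at both times, 2 for p53 TM against pGFP and 2 against RW mutant p53 at 6 h, 4 against wild type p53 and 4 against p53 O6-meG at 24 h, and 4 for the larger rise. The share of all genes called with the block is not given here. At 6 h the numbers were not taken as pairs. There the block added TNFRSF1A in 4 comparisons, with log2 values of 0.22, 0.27, -0.41 and -0.45. It also added EDA2R for p53 TM against wild type p53 (-1.39, adjusted P = 0.0195). TNFRSF10D was added for p53 TM against pGFP (0.53, adjusted P = 0.000532) and against RW mutant p53 (0.38, adjusted P = 0.0208). The time change of pGFP went from 4 genes to 2 with DESeq2's size factors, with DESeq2 and with every gene kept.

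Leaving out single libraries gave 0 to 1 genes for p53 TM against pGFP and 0 to 1 against RW mutant p53 at 6 h (0 without replicate 1 of p53 TM), 1 to 4 against wild type p53 and 0 to 3 against p53 O6-meG at 24 h, 2 to 4 for the time change of pGFP and 1 to 3 for the larger rise. Values near 0 changed sign. TNFRSF21 with wild type p53 against pGFP at 24 h went from 0.017 to -0.0098 with size factors (-0.009791) and with DESeq2 (-0.009782), to -0.0648 with every gene kept, and ranged from -0.237 to 0.184 over single libraries left out. TNFRSF21 with p53 TM against wild type p53 at 6 h went from -0.036 to 0.0098 with size factors and 0.00932 with DESeq2 (-0.193 to 0.106), and at 24 h it ranged from -0.343 to 0.0787. TNFRSF10B with p53 TM against wild type p53 at 24 h reached 0.0299 with every gene kept (-0.0863 to 0.0789). The part of the rise of TNFRSF10A reached by p53 TM at 6 h was -0.14% with the title placement (-1.16% to 4.97%), and that of PIDD1 ranged from -0.922% to 5.98%. The cause of these changes was not tested. Of the log2 values under other settings, 584 kept their direction and call, 36 gained a call, 39 lost one and 6 changed sign. With a library left out the numbers were 2588, 17, 47 and 8. The 2 libraries per group of p53 TM and p53 O6-meG at 6 h and the few reads of EDA2R and TNFRSF10C limit what could be called.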
